A study of Mus musculus with 42 samples.

Results

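The genes described here are 10 members of the midbrain dopaminergic lineage, chosen by name from the 52636 gene lines of the count tables: the progenitor and floor plate factors Lmx1a, Lmx1b, Foxa1 and Foxa2, the midbrain-hindbrain factors En1 and En2, the factors of postmitotic dopaminergic neurons Nr4a2 and Pitx3, and the dopamine synthesis enzymes Th and Ddc. Their levels were read in 9 RNA-seq libraries of primary neuronal cultures from mouse forebrain taken at embryonic day 16, with 3 libraries for each of 3 genotypes. Their chromatin was read in 6 peak lists from adult male hippocampus, 1 per genotype for SMARCA2/4 ChIP-seq (the ATPases of the BAF chromatin remodelling complex, 4 IP and 4 input samples per genotype, animals of 6 to 8 weeks, hippocampi of animals pooled within a replicate) and 1 per genotype for ATAC-seq of NeuN-sorted neuronal nuclei (3 samples per genotype).

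The groups were euploid mice, Ts65Dn mice, which carry a freely segregating extra chromosome with segments of mouse chromosomes 16 and 17 and serve as a model of Down syndrome, and Ts65Dn;Brwd1+/- mice, which carry the same extra chromosome together with 1 Brwd1 repro5 mutant allele, meant to return the copy number of the chromatin reader gene Brwd1 to that of euploid animals. The strain background was mixed, DBA/2J with B6EiC3Sn/J, for every group. The culture samples are labelled as forebrain-derived and as pooled from males and females, and the study's methods describe dissected cortices, genotyped embryo by embryo and grown with AraC against dividing glia. No member lies on chromosome 16 or 17.

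A pair of checks of the labels bears on every result below. Levels are given in CPM, the count scaled to the library size with TMM factors. Brwd1 was at 85.9 to 93.2 CPM in euploid and 125 to 129 CPM in Ts65Dn, and the libraries labelled Ts65Dn;Brwd1+/- held 124 to 146 CPM. The mutant allele did not show as a lower Brwd1 level (Ts65Dn;Brwd1+/- against Ts65Dn, log2 difference 0.13 ± 0.08 SE, adjusted p = 0.186 in the edgeR quasi-likelihood test). Xist, transcribed from an inactive X chromosome, was at 1409 to 1982 CPM in the 3 libraries labelled Ts65Dn;Brwd1+/- and at most 1.12 CPM in the other 6. The Y-linked gene Ddx3y was at most 0.0892 CPM in the former and at least 46.2 CPM in the latter, so sex and that genotype cannot be told apart in the cultures. No library held both genes at high levels, so none read as the mix of sexes that the labels give. In what follows, Ts65Dn;Brwd1+/- names the culture libraries by this label. Every direction drawn from them carries both limits. The libraries held 17270070 to 25892802 counts in genes, and 3 counts, the floor used here for detection in a library, corresponded to 0.112 to 0.167 CPM.

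Midbrain dopaminergic neurons are made in the ventral midline, or floor plate, of the midbrain, where sonic hedgehog from the midline and signals from the isthmus, the boundary of midbrain and hindbrain, meet. LMX1A, LMX1B, FOXA1 and FOXA2 specify the progenitors there, EN1 and EN2 mark and maintain midbrain and anterior hindbrain identity, and NR4A2 (NURR1) with PITX3 turns on the dopaminergic genes in young neurons, among them Th, the rate-limiting enzyme of dopamine synthesis, and Ddc, which converts L-DOPA to dopamine. Several members also work elsewhere in the brain: Lmx1a in the roof plate and cortical hem, Lmx1b in serotonergic neurons, En1 and En2 in the hindbrain and cerebellum, and Nr4a2 in cortical subplate, claustrum and hippocampus.

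The sequences below are those to which the chromatin data or the motif search point, all from the GRCm38 (mm10) assembly, written 5′ to 3′ on the strand of the gene in lower case, with capitals marking matches to 1 of 6 motifs. The first 4 are 300-base windows centred on an ATAC-seq peak that names a member, none of which overlaps an annotated exon. The Lmx1a window, inside the gene at chr1:167736856-167737155 (+ strand), is shown because ATAC-seq peaks of all 3 genotypes overlapped it. The Lmx1b window at chr2:33616314-33616613 (- strand), also within the gene, had a peak in Ts65Dn and Ts65Dn;Brwd1+/-. The Nr4a2 window at chr2:57116729-57117028 (- strand), within the span of its longer transcript, had ATAC-seq peaks and the SMARCA2/4 peak of highest fold enrichment at a member, and the Th window at chr7:142903042-142903341 (- strand) held the single peak that named Th.
Lmx1a intronic window: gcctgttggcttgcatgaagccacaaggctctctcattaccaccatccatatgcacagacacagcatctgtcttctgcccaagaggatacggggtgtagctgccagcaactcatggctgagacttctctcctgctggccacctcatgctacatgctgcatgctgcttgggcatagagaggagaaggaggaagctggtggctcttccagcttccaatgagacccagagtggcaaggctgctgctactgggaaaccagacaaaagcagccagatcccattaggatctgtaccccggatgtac
Lmx1b intronic window: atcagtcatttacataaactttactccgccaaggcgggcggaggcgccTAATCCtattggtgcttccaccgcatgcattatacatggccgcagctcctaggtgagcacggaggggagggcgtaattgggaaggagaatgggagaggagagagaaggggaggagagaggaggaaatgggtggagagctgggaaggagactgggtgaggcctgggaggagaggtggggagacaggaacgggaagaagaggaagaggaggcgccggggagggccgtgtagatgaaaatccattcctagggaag
Nr4a2 window: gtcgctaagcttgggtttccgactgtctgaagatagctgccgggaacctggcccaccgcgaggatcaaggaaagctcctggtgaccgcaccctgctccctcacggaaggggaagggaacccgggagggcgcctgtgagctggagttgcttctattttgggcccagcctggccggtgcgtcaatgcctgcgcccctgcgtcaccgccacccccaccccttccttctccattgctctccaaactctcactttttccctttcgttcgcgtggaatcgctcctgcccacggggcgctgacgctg
Th upstream window: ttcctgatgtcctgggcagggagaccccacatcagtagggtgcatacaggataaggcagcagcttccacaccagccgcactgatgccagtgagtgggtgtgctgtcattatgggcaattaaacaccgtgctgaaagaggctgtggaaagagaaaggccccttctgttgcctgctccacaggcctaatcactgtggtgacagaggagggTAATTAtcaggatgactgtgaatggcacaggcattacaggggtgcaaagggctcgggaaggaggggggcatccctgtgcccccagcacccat

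The next 3 are stretches before RefSeq transcription starts, without bases of the gene's own exons, shown because each held a motif of a factor known to act on this lineage or on Th. The Th promoter at chr7:142900015-142900245 (- strand) held a cyclic AMP response element (CRE) starting 45 bases before the RefSeq start. The Foxa1 promoter at chr12:57546122-57546361 (- strand) held the forkhead core bound by FOXA proteins, 141 bases before the start. The Ddc promoter at chr11:11898145-11898394 (- strand) held the NBRE, the monomer element of NR4A receptors, 73 bases before the start.
Th promoter: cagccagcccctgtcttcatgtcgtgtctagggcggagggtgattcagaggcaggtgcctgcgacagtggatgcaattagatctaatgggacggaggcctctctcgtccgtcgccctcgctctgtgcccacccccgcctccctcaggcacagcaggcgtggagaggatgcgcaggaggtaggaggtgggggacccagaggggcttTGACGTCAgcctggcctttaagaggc
Foxa1 promoter: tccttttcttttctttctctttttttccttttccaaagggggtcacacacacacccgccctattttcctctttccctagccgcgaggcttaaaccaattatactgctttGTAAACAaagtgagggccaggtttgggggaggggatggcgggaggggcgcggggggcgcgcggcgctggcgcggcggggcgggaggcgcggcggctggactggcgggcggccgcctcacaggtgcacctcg
Ddc promoter: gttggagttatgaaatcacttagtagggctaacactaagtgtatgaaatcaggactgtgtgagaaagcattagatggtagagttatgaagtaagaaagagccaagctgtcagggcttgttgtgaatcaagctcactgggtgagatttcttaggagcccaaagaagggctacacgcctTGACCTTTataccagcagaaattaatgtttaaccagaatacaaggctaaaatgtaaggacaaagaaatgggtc

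The motifs searched on both strands were the NBRE AAAGGTCA, the forkhead core TGTTTAC, the bicoid-type homeodomain site TAATCC, the homeodomain site TAATTA, the CRE TGACGTCA and the AP-1 site TGACTCA, and no 2 matches overlapped. In the Foxa1 and Ddc promoters the match lies on the opposite strand and so reads GTAAACA and TGACCTTT. RefSeq promoter entries of 300 bases, from 250 before to 50 after the start, were found for 9 of the 10 members (not En2), 12 entries in all. The NBRE was in 1 of these 12 (Ddc) against 1.51% of all 32851 promoters, the forkhead core in 1 (Foxa1) against 3.65%, the CRE in 1 (Th) against 1.79% and the AP-1 site in 1 (En1) against 5.20%, and the TAATCC and TAATTA sites, held by 7.06% and 5.29% of all promoters, were in none. Among 30209 windows of 300 bases centred on the ATAC-seq peaks of Ts65Dn;Brwd1+/-, TAATCC, as in the Lmx1b window, was in 5.47% and TAATTA, as in the Th window, in 3.99%. The Lmx1b window itself was centred on the Ts65Dn peak. By base composition the members' promoters ranged from 41.3% G+C with 2 CpG (Ddc) to 81.7% with 52 CpG (Nr4a2), against medians of 52.7% and 7 CpG over all promoters.

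The 1st comparison, Ts65Dn against euploid, asks what the extra chromosome does to these genes in cultured neurons. Of the 10 members, 9 passed the count filter (Pitx3 did not), 6 were higher in Ts65Dn (Lmx1b, Foxa1, Foxa2, En1, En2 and Th), 2 were lower (Lmx1a and Nr4a2) and Ddc did not pass the test. Among all 17173 genes tested, 25.6% were called higher and 21.1% lower. Lmx1b, Foxa1, Foxa2, En1 and Th passed the filter only through genotypes in which they were high, so the number of members called is a description and carries no weight of its own. The differences ranged from a fall of Nr4a2 to 0.567 of its euploid level to an increase of Foxa2 from below the detection floor.

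Lmx1b (chr2:33560965-33640511), a LIM-homeodomain factor of floor plate, isthmus and hindbrain, showed the largest change for Ts65Dn against euploid among the members with counts in every library. Its level was 0.243, 0.790 and 0.137 CPM in the euploid libraries, 7.19, 6.47 and 10.9 CPM in Ts65Dn, and 0.446, 0.668 and 0.373 CPM in the libraries labelled Ts65Dn;Brwd1+/-. The lowest Ts65Dn library stood above the highest library of either other genotype. Of the euploid counts, 5, 18 and 3, those of replicates 1 and 3 were at or near the floor. The log2 fold change was 4.35 ± 0.41 (SE) for Ts65Dn against euploid (edgeR adjusted p = 3.9e-05), and 5.41 without euploid replicate 2, which held 18 of the 26 euploid counts.

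Foxa1 (chr12:57540628-57546916), a pioneer factor of the floor plate, was at 0.388, 0.351 and 0.182 CPM in euploid, 2.78, 4.30 and 3.84 CPM in Ts65Dn, and 0.134, 0.0557 and 0.224 CPM in Ts65Dn;Brwd1+/-. Euploid libraries held 8, 8 and 4 counts against 68, 87 and 87 in Ts65Dn, without overlap. The log2 fold change was 3.54 ± 0.31 (SE, edgeR adjusted p = 2.7e-05). Its paralogue Foxa2 (chr2:148042877-148046969), the defining factor of the floor plate, was close to absent outside Ts65Dn: 0, 1 and 0 counts in euploid, 29, 25 and 42 in Ts65Dn (1.18, 1.23 and 1.85 CPM), and 1, 0 and 2 in Ts65Dn;Brwd1+/-. With a single euploid count the size of the change is loosely bounded; the ratio of summed counts, corrected for library size, was 93.1 with a 95% counting interval of 16.3 to 3715, which covers counting error only (edgeR adjusted p = 6.2e-05). Without euploid replicate 2, which held that count, no euploid count is left and the fitted value is no bound.

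Lmx1a (chr1:167689237-167848741), the paralogue of Lmx1b, moved the other way. It was at 10.6, 11.8 and 12.6 CPM in euploid, 6.00, 7.31 and 8.61 CPM in Ts65Dn, and 4.24, 7.18 and 6.08 CPM in Ts65Dn;Brwd1+/-. Every Ts65Dn library lay below every euploid one (log2 fold change -0.68 ± 0.18 SE, edgeR adjusted p = 0.0127). Unlike Lmx1b, Foxa1 and Foxa2, Lmx1a was well above the floor in all 9 libraries, with at least 95 counts.

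The engrailed genes rose together in Ts65Dn. En2 (chr5:28165694-28172166) was the most abundant member there per length: it was at 2.96, 3.47 and 3.32 CPM in euploid, 14.05, 19.3 and 20.4 CPM in Ts65Dn, and 2.32, 2.28 and 2.43 CPM in Ts65Dn;Brwd1+/-. En1 (chr1:120602418-120607992) was at 0.340, 0.263 and 0.137 CPM in euploid, 1.18, 1.58 and 1.50 CPM in Ts65Dn, and 0.223, 0.111 and 0.112 CPM in Ts65Dn;Brwd1+/-. For both, all Ts65Dn libraries exceeded all others, and the log2 fold changes were nearly equal, at 2.46 ± 0.15 for En2 (edgeR adjusted p = 3.2e-06) and 2.50 ± 0.31 for En1 (SE, adjusted p = 0.00023), although En1 had only 3 to 7 counts per euploid library.

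Nr4a2 (chr2:57106830-57124003), the nuclear receptor NURR1, was at 7.67, 6.49 and 6.33 CPM in euploid, 4.25, 3.70 and 3.62 CPM in Ts65Dn, and 8.25, 8.02 and 9.03 CPM in Ts65Dn;Brwd1+/-. The 3 genotypes did not overlap, with Ts65Dn lowest, and the log2 fold change against euploid was -0.82 ± 0.12 (SE, edgeR adjusted p = 0.00069). Pitx3 (chr19:46135685-46148326), the homeodomain factor that defines midbrain dopaminergic neurons together with Nr4a2, had 2, 2 and 0 counts in euploid, 0, 2 and 0 in Ts65Dn, and 5, 2 and 2 in Ts65Dn;Brwd1+/-. A single library exceeded 3 counts, so Pitx3 was not detectable above the floor in the other 8 and no fold is given.

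Th (chr7:142892752-142931128), tyrosine hydroxylase, had 2 counts in each euploid library, 9, 10 and 13 in Ts65Dn, and 13, 20 and 43 in Ts65Dn;Brwd1+/-, or 0.0971, 0.0877 and 0.0911 CPM, then 0.367, 0.494 and 0.574 CPM, then 0.580, 1.11 and 1.61 CPM. The 3 genotypes did not overlap, in the order euploid, Ts65Dn, Ts65Dn;Brwd1+/-, though the highest Ts65Dn and the lowest Ts65Dn;Brwd1+/- library both held 13 counts. Euploid libraries were under the floor, and the ratio of summed counts of Ts65Dn to euploid was 5.17 with a 95% counting interval of 2.13 to 15.1 (edgeR adjusted p = 0.0118). Fitted on these 2 genotypes alone, Th did not pass the count filter and had no test. Ddc (chr11:11814101-11898144), DOPA decarboxylase, was at 1.02, 0.526 and 0.865 CPM in euploid, 0.898, 1.33 and 1.15 CPM in Ts65Dn, and 0.669, 1.06 and 1.19 CPM in Ts65Dn;Brwd1+/-. Its ranges overlapped in all pairs of genotypes, and the log2 fold change for Ts65Dn against euploid was 0.48 with a 95% interval of -0.11 to 1.08 (edgeR adjusted p = 0.219).

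**Figure D1:**
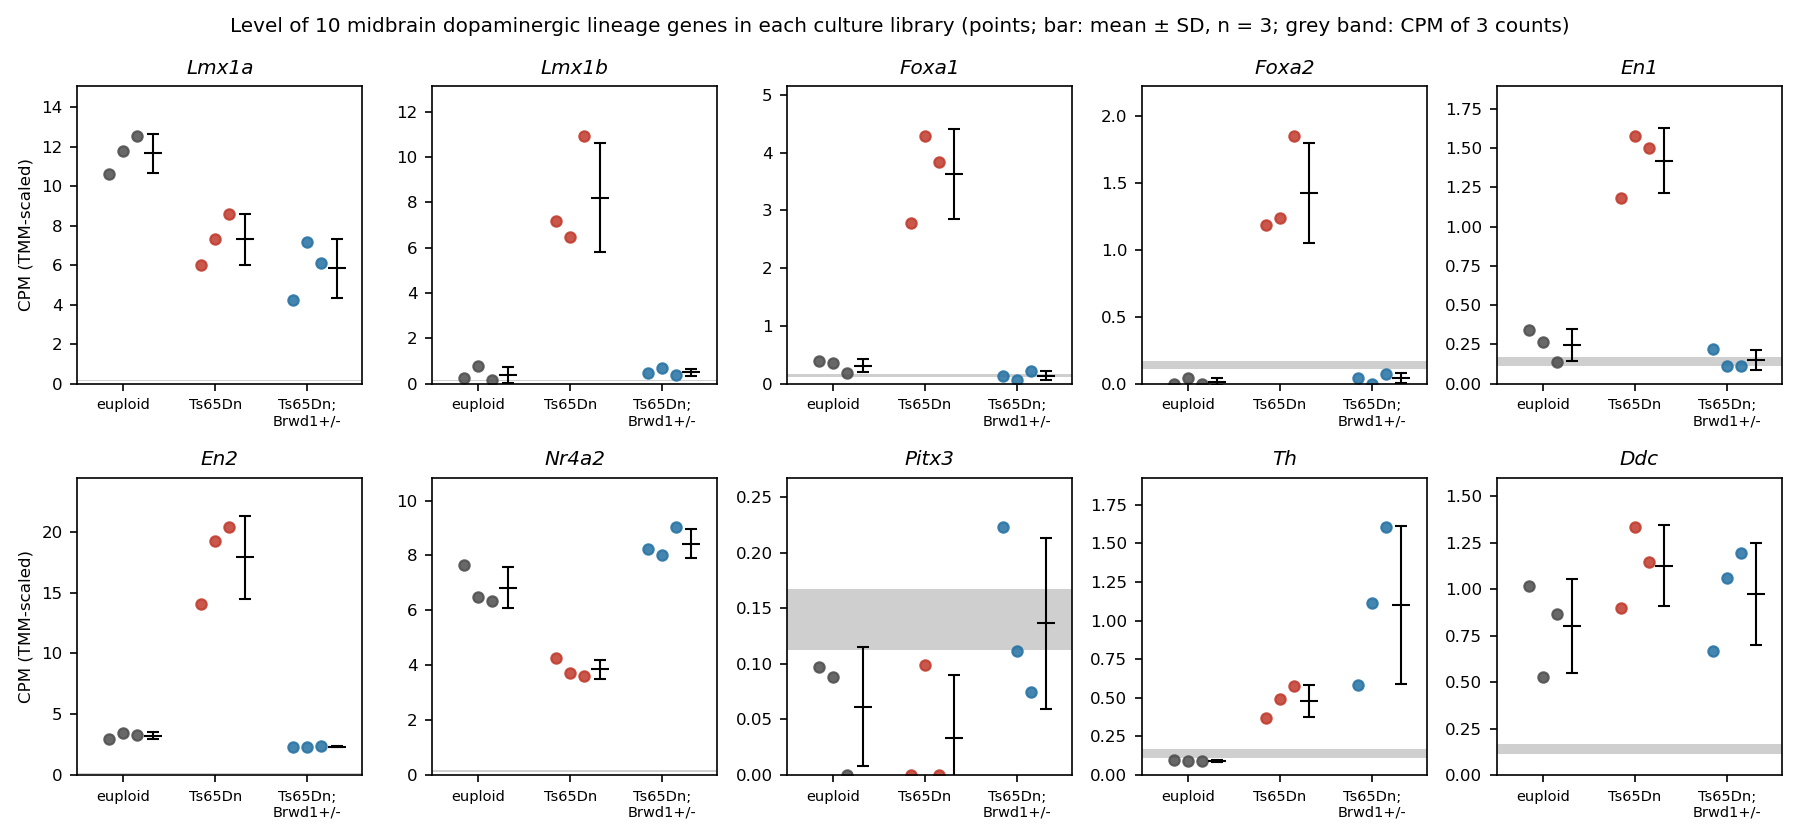
Level of each of the 10 genes in CPM (y axis, linear from 0, scaled separately for each gene) in the 9 culture libraries, grouped by genotype; points are libraries, the black bar is the mean ± SD of 3 libraries and the grey band is the CPM of 3 counts. Lmx1b, Foxa1, Foxa2, En1 and En2 are high in the 3 Ts65Dn libraries only, Nr4a2 is lowest there, and Th rises from under the floor in euploid to 0.580 to 1.61 CPM in the libraries labelled Ts65Dn;Brwd1+/-.

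The 2nd comparison sets Ts65Dn;Brwd1+/- against Ts65Dn. These culture labels also differ in sex, and Brwd1 was not lower, so an effect of the mutant allele cannot be separated here. Of the 9 members tested, 5 were lower (Lmx1b, Foxa1, Foxa2, En1 and En2), 2 were higher (Nr4a2 and Th), and Lmx1a and Ddc did not pass the test. Among all genes tested 27.6% were called higher and 30.5% lower. Lmx1b, Foxa1, Foxa2, En1 and Th passed the count filter only through genotypes in which they were high. The number of members called is therefore again a description only. This comparison shares its Ts65Dn libraries with the 1st one, so a gene that stood apart in those 3 libraries appears in both with opposite signs.

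The log2 fold changes were -4.08 ± 0.39 for Lmx1b, -4.56 ± 0.35 for Foxa1, -3.20 ± 0.34 for En1 and -2.93 ± 0.16 for En2 (SE, edgeR adjusted p between 7.7e-07 and 3.3e-05). For Foxa2, with 3 counts over the libraries labelled Ts65Dn;Brwd1+/-, the ratio of Ts65Dn to that genotype was 31.9 with a 95% counting interval of 10.6 to 157 (edgeR adjusted p = 3.1e-05). Without Ts65Dn;Brwd1+/- replicate 3, which held 2 of these 3 counts, the fitted log2 fold change of Foxa2 was -5.55 in place of -4.83. These 5 genes were thus lower in every library labelled Ts65Dn;Brwd1+/- than in any Ts65Dn library. Nr4a2 was higher by 1.13 ± 0.12 on the log2 scale (SE, edgeR adjusted p = 3.6e-05), again without overlap.

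Th did not follow the other genes that were high in Ts65Dn: it was higher still in the libraries labelled Ts65Dn;Brwd1+/-, by 1.22 ± 0.37 on the log2 scale (SE, edgeR adjusted p = 0.0160). That call rested on few counts. Without replicate 3 of Ts65Dn;Brwd1+/-, which held 43 of the 76 counts of its group, the log2 fold change was 0.79 (edgeR adjusted p = 0.0881), and without replicate 1 of Ts65Dn it was 1.05 (edgeR adjusted p = 0.0580). Lmx1a differed by -0.33 (95% interval -0.71 to 0.05, edgeR adjusted p = 0.166) and Ddc by -0.19 (95% interval -0.76 to 0.38, edgeR adjusted p = 0.600).

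The 3rd comparison sets Ts65Dn;Brwd1+/- against euploid. Of the 9 members tested, Th was higher and Lmx1a lower, and the other 7 did not pass the test, while 14% of all genes were called higher and 15.2% lower. As above, Th passed the count filter only through genotypes in which it was high. For Th the ratio of summed counts was 12.3 with a 95% counting interval of 5.41 to 34.6 (edgeR adjusted p = 0.00080), and all 3 libraries exceeded all euploid ones. Lmx1a was lower by 1.01 on the log2 scale (fold change -1.01 ± 0.19 SE, edgeR adjusted p = 0.0029), so its level fell short of euploid in both trisomic genotypes.

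Of the members that did not pass, En2 and Nr4a2 were measured most precisely. En2 was lower in every Ts65Dn;Brwd1+/- library than in any euploid one (log2 fold change -0.47, 95% interval -0.82 to -0.12, edgeR adjusted p = 0.0775), and Nr4a2 was higher in every one (0.31, 95% interval 0.08 to 0.54, edgeR adjusted p = 0.0723). Both calls depended on the fit: En2 passed the test in 4 alternatives, among them the replicate block (adjusted p = 0.0447), and Nr4a2 without euploid replicate 1 (0.40, adjusted p = 0.0416). For Lmx1b (95% interval -0.93 to 1.47), Foxa1 (-2.10 to 0.06) and En1 (-1.65 to 0.25) the intervals still allowed differences of 1 log2 unit or more in at least 1 direction. Foxa2 was at or under 3 counts in every library of both genotypes, and its difference was not detectable at this depth.

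**Figure D2:**
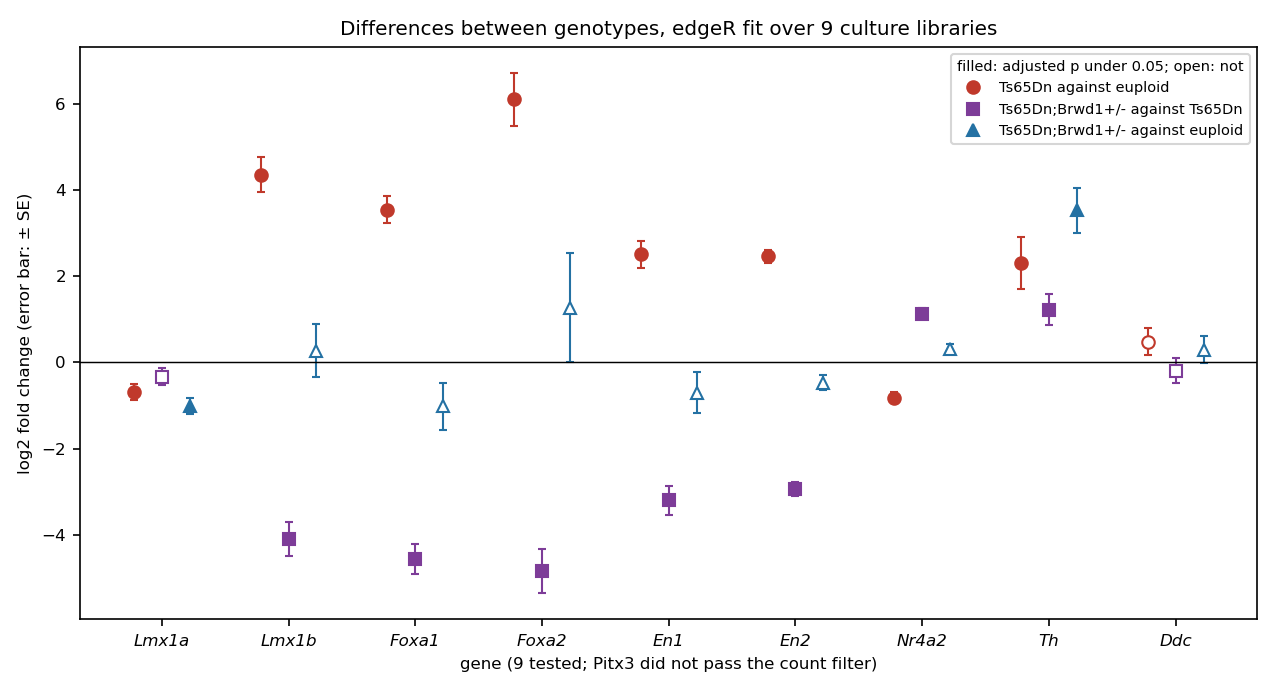
Log2 fold change (y axis) of the 9 tested genes (x axis) in the 3 comparisons of genotypes, with error bars of ± SE from the edgeR fit over 9 libraries; filled symbols passed an adjusted p of 0.05 and open ones did not. Lmx1b, Foxa1, Foxa2, En1 and En2 lie between 2.46 and 6.10 for Ts65Dn against euploid and between -4.83 and -2.93 for Ts65Dn;Brwd1+/- against Ts65Dn. Values for Foxa2 depend on the prior count because 1 euploid count was seen. Th is above 0 in all comparisons.

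Per kilobase of exon, the scale on which levels of different genes can be set side by side, the order of the members differed between genotypes. In euploid, Lmx1a (3.43 ± 0.29 CPM per kb, SD, n = 3), Nr4a2 (1.68 ± 0.18) and En2 (0.918 ± 0.073) led without overlap of their libraries. Next came Ddc (0.180 ± 0.057), whose libraries overlapped with those of En1 and Lmx1b. The other 6 were between 0.00617 and 0.0939 CPM per kb on average, and among them neighbours overlapped except Th and Foxa2. In Ts65Dn, En2 (5.06 ± 0.96) led alone. Then came the pairs Lmx1a and Lmx1b (2.15 ± 0.38 and 1.68 ± 0.49), Foxa1 and Nr4a2 (1.09 ± 0.23 and 0.950 ± 0.084), Foxa2 and En1 (0.601 ± 0.157 and 0.542 ± 0.080), and Ddc and Th (0.253 ± 0.049 and 0.202 ± 0.044). Within each of these pairs the libraries overlapped, and between neighbouring pairs they did not. In Ts65Dn;Brwd1+/-, Nr4a2 (2.08 ± 0.13) and Lmx1a (1.72 ± 0.44) overlapped at the top, En2 (0.662 ± 0.021) overlapped with Th (0.465 ± 0.217), Th overlapped with Ddc (0.218 ± 0.061), and Lmx1b, Pitx3, En1, Foxa1 and Foxa2 were between 0.102 and 0.0168 CPM per kb, in that order, with each overlapping its neighbour and none overlapping Ddc.

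Across the 9 libraries, 3 per genotype, the log2 CPM of Lmx1b, Foxa1, Foxa2, En1 and En2 correlated with each other at Pearson r of 0.91 to 0.98. Nr4a2 correlated with these 5 at -0.98 to -0.89. Lmx1a stood apart, with r between -0.22 and -0.01 to the same 5 and -0.73 to Th, and Th had r of -0.05 to 0.23 to them. Among 14864 or 14865 other tested genes with a mean of at least 1 CPM, the closest in pattern were Trpm3 to Lmx1b (r = 0.990), Opn4 to Foxa2 (0.996), Tmbim4 to Foxa1 (0.993), St3gal5 to En1 (0.991), Ecm1 to En2 (0.998), P3h2 to Lmx1a (0.978), Ndufaf4 to Nr4a2 (0.993), BC055324 to Th (0.978) and 4632415L05Rik to Ddc (0.954). With 3 groups of 3 libraries these values describe mainly the order of the group means.

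Other genes of the pathway were read from 3 lists of 44 genes, of which 39 passed the count filter. For Ts65Dn against euploid 16 were higher and 9 lower, for Ts65Dn;Brwd1+/- against Ts65Dn 12 were higher and 16 lower, and for Ts65Dn;Brwd1+/- against euploid 12 were higher and 8 lower. Among all genes, the shares called higher and lower in these comparisons were 25.6% and 21.1%, 27.6% and 30.5%, and 14% and 15.2%, so the 9 lower genes of the 1st comparison and the 12 higher ones of the 2nd were near the background. The median log2 fold changes of the 39 were 0.30, -0.12 and 0.20, against 0.04, 0.00 and -0.02 over all genes tested.

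Of the 22 genes of midbrain and isthmus patterning, 18 were tested, and 9 were higher and 5 lower in Ts65Dn than in euploid (median 0.45). Beside them stand 25.6% higher and 21.1% lower among all genes. Nkx6-1, a ventral progenitor factor, had 1 count over the euploid libraries, 95 over Ts65Dn and 0 over Ts65Dn;Brwd1+/- (edgeR adjusted p = 8.4e-05), so that Ts65Dn was at least 10.3-fold higher than Ts65Dn;Brwd1+/- with a floor of 3 counts per library. Otx2, the fore- and midbrain factor that meets Gbx2 at the boundary, rose from 3.15 to 3.96 CPM in euploid to 58.4 to 69.9 CPM in Ts65Dn (log2 fold change 4.09 ± 0.17 SE, edgeR adjusted p = 3.9e-07). Its hindbrain counterpart Gbx2 rose by 3.07 ± 0.30, from 13 to 115 summed counts. The isthmic genes Cnpy1, a modulator of FGF signalling, and Pax2 rose by 4.17 ± 0.20 and 2.87 ± 0.26, and the FGF target Spry1 by 1.15 ± 0.10.

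The list did not move in 1 direction. Among the genes that were lower in Ts65Dn were Shh, the midline signal that induces the floor plate (-0.77 ± 0.18), Dmrta2 (-0.62 ± 0.13) and Neurog2, a proneural factor (-0.56 ± 0.19). Nkx2-2, a ventral progenitor factor, was higher in Ts65Dn (0.82 ± 0.25) and higher again in Ts65Dn;Brwd1+/- (2.06 ± 0.22 against euploid). Fgf8, Pax8, Ferd3l and Corin were too low to be tested. Against Ts65Dn, the libraries labelled Ts65Dn;Brwd1+/- were lower for 9 and higher for 5 of the 18 (all genes: 30.5% and 27.6%). The median was -0.53, unchanged with Nkx6-1 at its bound. Otx2 was at -2.49 ± 0.15, Cnpy1 at -2.86 ± 0.17, Gbx2 at -3.97 ± 0.34 and Pax2 at -4.56 ± 0.30. Otx2 and Cnpy1 stayed above euploid there (1.60 ± 0.18 and 1.30 ± 0.25), whereas Pax2 was below it (-1.70 ± 0.35).

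Of the 12 genes of dopamine handling, 11 were tested, and 4 were higher and 1 lower in Ts65Dn than in euploid (median 0.26). The shares of all genes were 25.6% higher and 21.1% lower. Aldh1a1, an aldehyde dehydrogenase of ventral dopaminergic neurons that also makes retinoic acid, rose from 10.9 to 11.6 CPM in euploid to 66.1 to 73.0 CPM in Ts65Dn (log2 fold change 2.64 ± 0.09 SE, edgeR adjusted p = 1.7e-07) and fell by 3.44 in Ts65Dn;Brwd1+/- against Ts65Dn. Maob, a monoamine oxidase found in astrocytes, rose by 1.46 ± 0.17, and Pcbd1 and Spr, which recycle and make the cofactor of tyrosine hydroxylase, by 0.98 ± 0.20 and 0.30 ± 0.09. Slc18a2, the vesicular monoamine transporter, was the 1 lower gene (-0.57 ± 0.16), and Slc6a3, the dopamine transporter, had 65 summed counts in euploid, 36 in Ts65Dn and 59 in the libraries labelled Ts65Dn;Brwd1+/- with no call in any comparison. In Ts65Dn;Brwd1+/- against Ts65Dn, 2 of the 11 were higher and 5 lower, beside 27.6% and 30.5% of all genes.

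All 10 genes of dopaminergic neuron differentiation were tested, and 3 were higher and 3 lower in Ts65Dn (median 0.36). These counts were near the shares of all genes, 25.6% higher and 21.1% lower. Calb1 (-1.69 ± 0.35), Lmo3 (-1.04 ± 0.13) and the GDNF receptor Ret (-0.76 ± 0.16) were lower, and Ebf3 (1.02 ± 0.28), Sox6 (0.46 ± 0.09) and Gfra1 (0.38 ± 0.09) higher. In Ts65Dn;Brwd1+/- against Ts65Dn, 5 were higher and 2 lower, beside 27.6% and 30.5% of all genes.

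**Figure D3:**
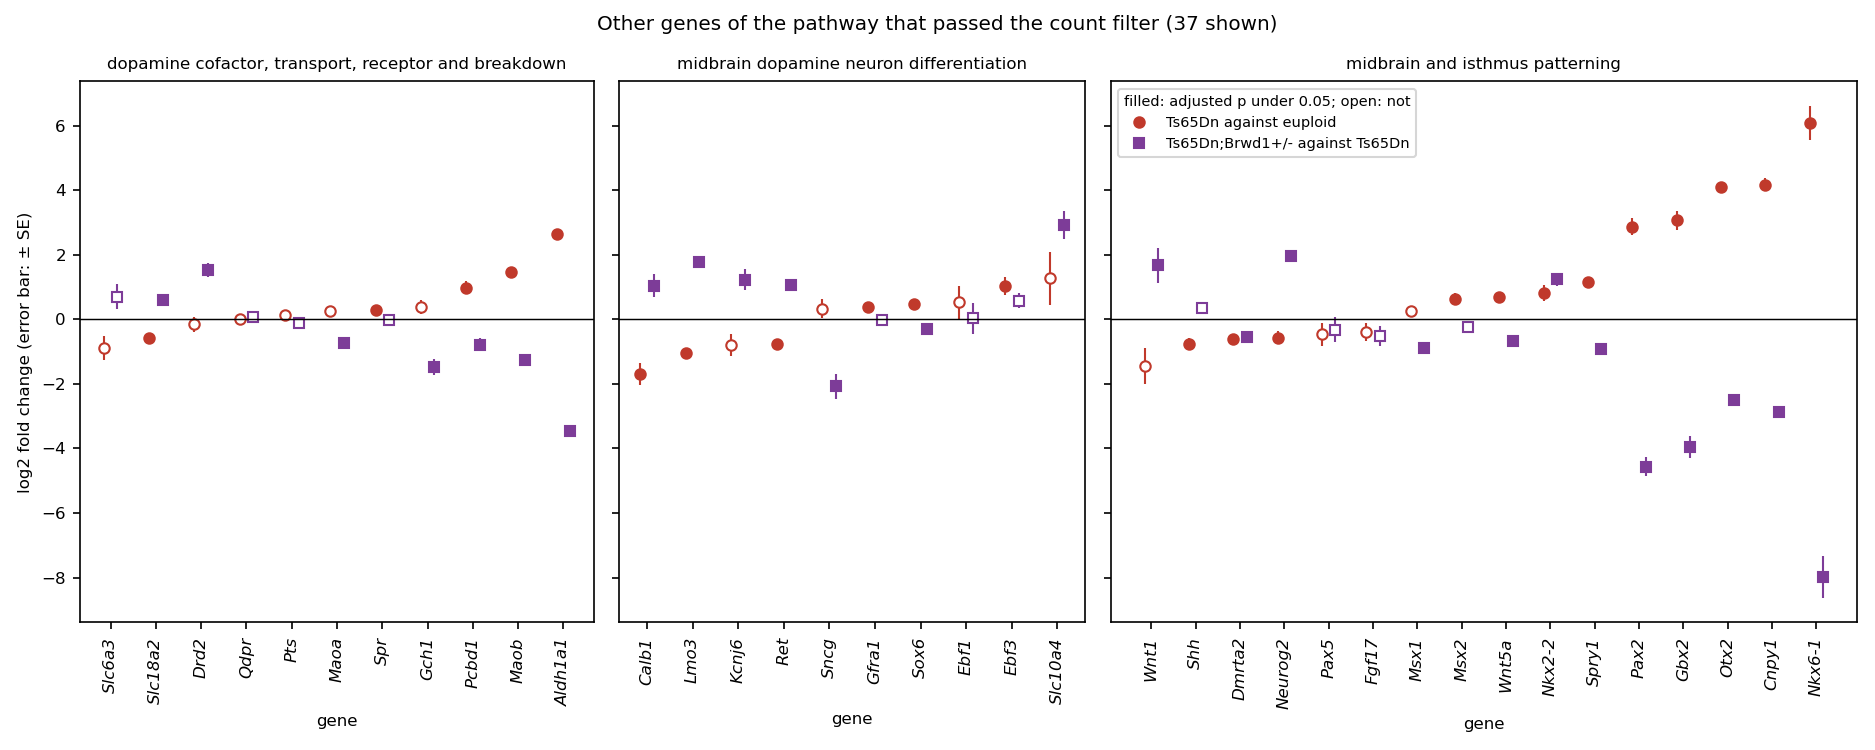
Log2 fold change (y axis, ± SE, edgeR fit over 9 libraries) of 37 tested genes of the 3 pathway lists (x axis, 1 panel per list), with 1 symbol for the 1st and another for the 2nd comparison of genotypes; filled symbols passed an adjusted p of 0.05. Nkx6-1, Cnpy1, Otx2, Gbx2, Pax2 and Aldh1a1 are highest in the 1st comparison, between 2.64 and 6.08, and are below 0 in the 2nd; the value of Nkx6-1 in the 2nd is a fitted one against 0 counts.

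Some lists of markers of other regions and cell types also differed between the genotypes. For Ts65Dn against euploid their counts stand beside 25.6% higher and 21.1% lower among all genes, so small shares of a list are near the background. The 10 markers of telencephalon and cortex were all detected in every library. Of these, 9 of 10 were lower in Ts65Dn than in euploid and 8 of 10 higher in Ts65Dn;Brwd1+/- than in Ts65Dn, with a summed level of 560 to 690 CPM in euploid, 229 to 327 CPM in Ts65Dn and 686 to 815 CPM in Ts65Dn;Brwd1+/-. The 8 pan-neuronal markers were 8 of 8 lower and then 8 of 8 higher, with summed levels of 4288 to 5289, 1073 to 2804 and 4198 to 5466 CPM. Their lowest value was in Ts65Dn replicate 3, the library with the highest Lmx1b, Foxa2 and En2, whereas Foxa1 and En1 were highest in Ts65Dn replicate 2. Without Ts65Dn replicate 3, Lmx1b differed from euploid by 4.09 on the log2 scale. In that fit 8 members and 6667 of all genes were called, and the number of members is again a description only. Fewer cells of a type and less RNA per cell cannot be told apart in these bulk libraries.

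Markers of the neighbouring subthalamic and hypothalamic regions summed to 3.25 to 3.69 CPM in euploid, 19.4 to 25.8 CPM in Ts65Dn and 12.7 to 13.7 CPM in Ts65Dn;Brwd1+/-, with 2 of the 4 tested higher and 1 lower in Ts65Dn against euploid. Markers of the cortical hem and roof plate, where Lmx1a is expressed, were higher for 4 and lower for 2 of 6 tested in Ts65Dn (603 to 643, 750 to 1188 and 270 to 349 summed CPM), and choroid plexus markers were higher for 1 and lower for 2 of 7 (96.3 to 702, 123 to 159 and 15.6 to 24.2 CPM, with euploid replicate 2 at 702). Of the 15 Hox genes of hindbrain and spinal cord none was tested, and none exceeded 2 counts in any library. None of 5 noradrenergic genes was tested, and their summed level was at most 0.437 CPM. The 7 genes of serotonergic neurons, in which Lmx1b is also expressed, summed to 35.6 to 37.9 CPM in euploid, 37.8 to 39.8 CPM in Ts65Dn and 20.5 to 23.7 CPM in Ts65Dn;Brwd1+/-. Of the 3 tested, Gata2, a transcription factor not limited to these neurons, was higher in Ts65Dn than in euploid (1.57 ± 0.16), and the serotonin receptor genes Htr1a (-1.68 ± 0.32) and Htr5b (-0.47 ± 0.17) were lower. The genes of serotonin synthesis, transport and identity were too low to be tested, with Tph2, Fev and Slc6a4 at 24, 3 and 8 summed counts in euploid and 17, 2 and 10 in Ts65Dn.

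Among non-neuronal lists, 4 of 7 astrocyte markers were higher and 1 lower in Ts65Dn than in euploid (2527 to 3239 against 3208 to 3681 summed CPM), and 4 of 6 meningeal and fibroblast markers were higher and 2 lower (45.4 to 57.2 against 122 to 186 CPM). The endothelial sum rose from 81.1 to 90.2 CPM to 653 to 860 CPM, almost wholly through Kdr, singled out after its values were seen, with Cldn5 at 0 in all libraries and 1 of 3 tested higher. Of the markers of microglia 2 of 4 tested were lower, of the oligodendrocyte lineage 1 of 6 was higher and 1 lower, of subplate and claustrum 1 of 7 was higher and 2 lower, and of olfactory bulb dopaminergic neurons, another source of Th, 2 of 4 were higher and 2 lower. The counts for Ts65Dn;Brwd1+/- against Ts65Dn stand beside 27.6% higher and 30.5% lower among all genes, so that small shares of a list are near the background. Of the oligodendrocyte lineage 5 of 6 markers were higher and 1 lower (54.9 to 66.9 against 211 to 268 summed CPM), and of olfactory bulb dopaminergic neurons 3 of 4 were higher and 1 lower (334 to 396 against 456 to 494 CPM). Against euploid, at 319 to 370 CPM, 3 of these 4 were higher in Ts65Dn;Brwd1+/- and none lower, beside 14% and 15.2% of all genes. At that summed level, euploid libraries held 2 counts of Th each, and whether these markers track cells expressing Th was not tested. Other lists differed in this comparison too: 4 of 6 hem and roof plate markers and 6 of 7 choroid plexus markers were lower. So were 4 of 4 microglial and 4 of 6 meningeal markers (1 higher), and 4 of 6 oligodendrocyte markers were higher (1 lower). Of subplate and claustrum, where Nr4a2 is expressed, 5 of 7 were higher and 1 lower than in Ts65Dn, although the sum was lower (620 to 877 against 330 to 349 CPM). Lower in Ts65Dn;Brwd1+/- than in Ts65Dn were 4 of 6 meningeal markers (1 higher, 35.3 to 45.7 CPM), 5 of 7 astrocyte markers (1 higher), 4 of 6 hem and roof plate markers, 3 of 7 choroid plexus markers, 3 of 4 microglial markers, 2 of 3 endothelial markers and 3 of 4 subthalamic and hypothalamic markers (1 higher). The part of these differences in cell or region markers in the values of the 10 members was not tested.

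**Figure D4:**
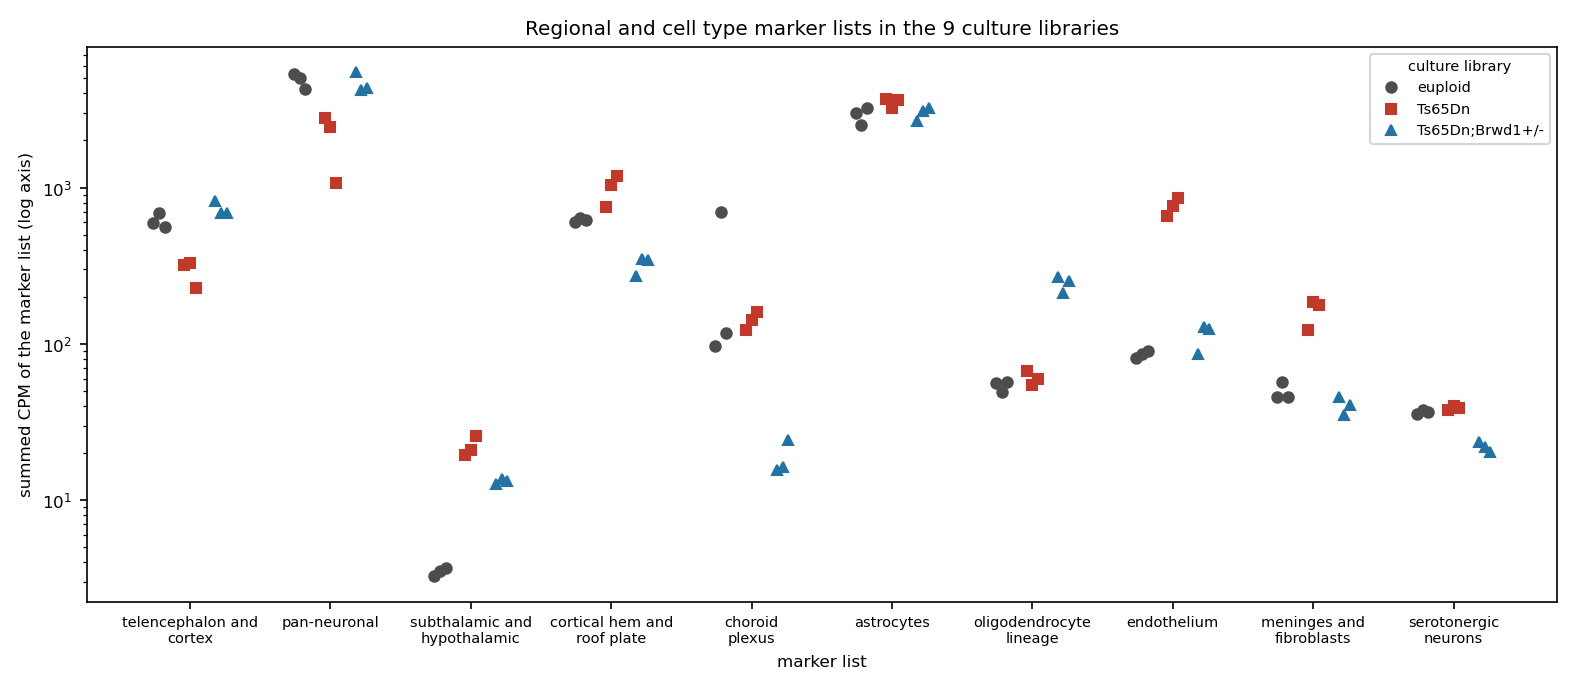
Summed CPM (y axis, log scale) of 10 marker lists (x axis) in each of the 9 culture libraries, with symbols by genotype. Telencephalic and pan-neuronal sums are lowest in the 3 Ts65Dn libraries, where the subthalamic and hypothalamic, endothelial and meningeal sums are highest.

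The peak lists describe chromatin in another tissue and age, the adult male hippocampus, and were called on pooled samples, so they carry no replicate error. Of the 10 members, ATAC-seq peaks named 2 in euploid (Lmx1a and Nr4a2), 3 in Ts65Dn (those and Lmx1b) and 4 in Ts65Dn;Brwd1+/- (those and Th). The same lists named 41.1%, 51.9% and 51.8% of 21938 protein-coding genes, and held 15521, 29195 and 30244 peaks. SMARCA2/4 peaks named Nr4a2 alone in each genotype, whereas those lists, of 22667, 1290 and 1873 peaks, named 29.4%, 3.24% and 3.71% of protein-coding genes. No peak in any list named Foxa1, Foxa2, En1, En2, Pitx3 or Ddc.

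At Nr4a2 the adult peaks lay around the start of its shorter coding transcript, at position 57115038 of chromosome 2. In euploid, SMARCA2/4 peaks lay at chr2:57116521-57116937 (fold enrichment over input 4.10, q = 0.000456) and chr2:57115233-57115324 (fold 3.08, q = 0.0199). The former shared 186 bases with the euploid ATAC-seq peak at chr2:57116752-57117004 (fold 2.89), within the window printed above. In Ts65Dn the 1 SMARCA2/4 peak, at chr2:57116197-57116249, had q = 1, and the 2 in Ts65Dn;Brwd1+/- had q = 0.757. With the stated limits of q under 0.05 and fold over 1.2 the euploid list alone named Nr4a2. ATAC-seq peaks covered the transcript start in Ts65Dn (chr2:57114443-57115205, fold 3.20) and Ts65Dn;Brwd1+/- (chr2:57114512-57115325, fold 3.75), sharing 694 bases. The upstream site had a peak in euploid and Ts65Dn;Brwd1+/- (190 shared bases) and none in the Ts65Dn list. The euploid one was among the weaker of its list, in which 4.75% of peaks had a lower fold. The lists give no test of the difference between genotypes.

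Lmx1a had an ATAC-seq peak at the same intronic site, 47427 to 47513 bases after the coding start, in all 3 genotypes, with a fold enrichment of 3.60 in euploid, 4.25 in Ts65Dn and 4.03 with the Brwd1 allele added, and at least 335 bases shared by any pair. Ts65Dn;Brwd1+/- had 2 further intronic peaks, at chr1:167802515-167802755 and chr1:167821260-167821462 (fold 3.76 and 3.69). The Lmx1b peaks of Ts65Dn (chr2:33616287-33616639, fold 4.63) and Ts65Dn;Brwd1+/- (chr2:33616319-33616815, fold 3.16) shared 321 bases. They lay 24017 and 23913 bases after its nearest coding start in GENCODE, and 15820 and 15716 bases after a start by the deposited annotation. The Th peak of Ts65Dn;Brwd1+/- (chr7:142903083-142903300, fold 3.14) lay 3177 bases before the coding start at position 142900014, inside the span of a longer annotated transcript.

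**Figure D5:**
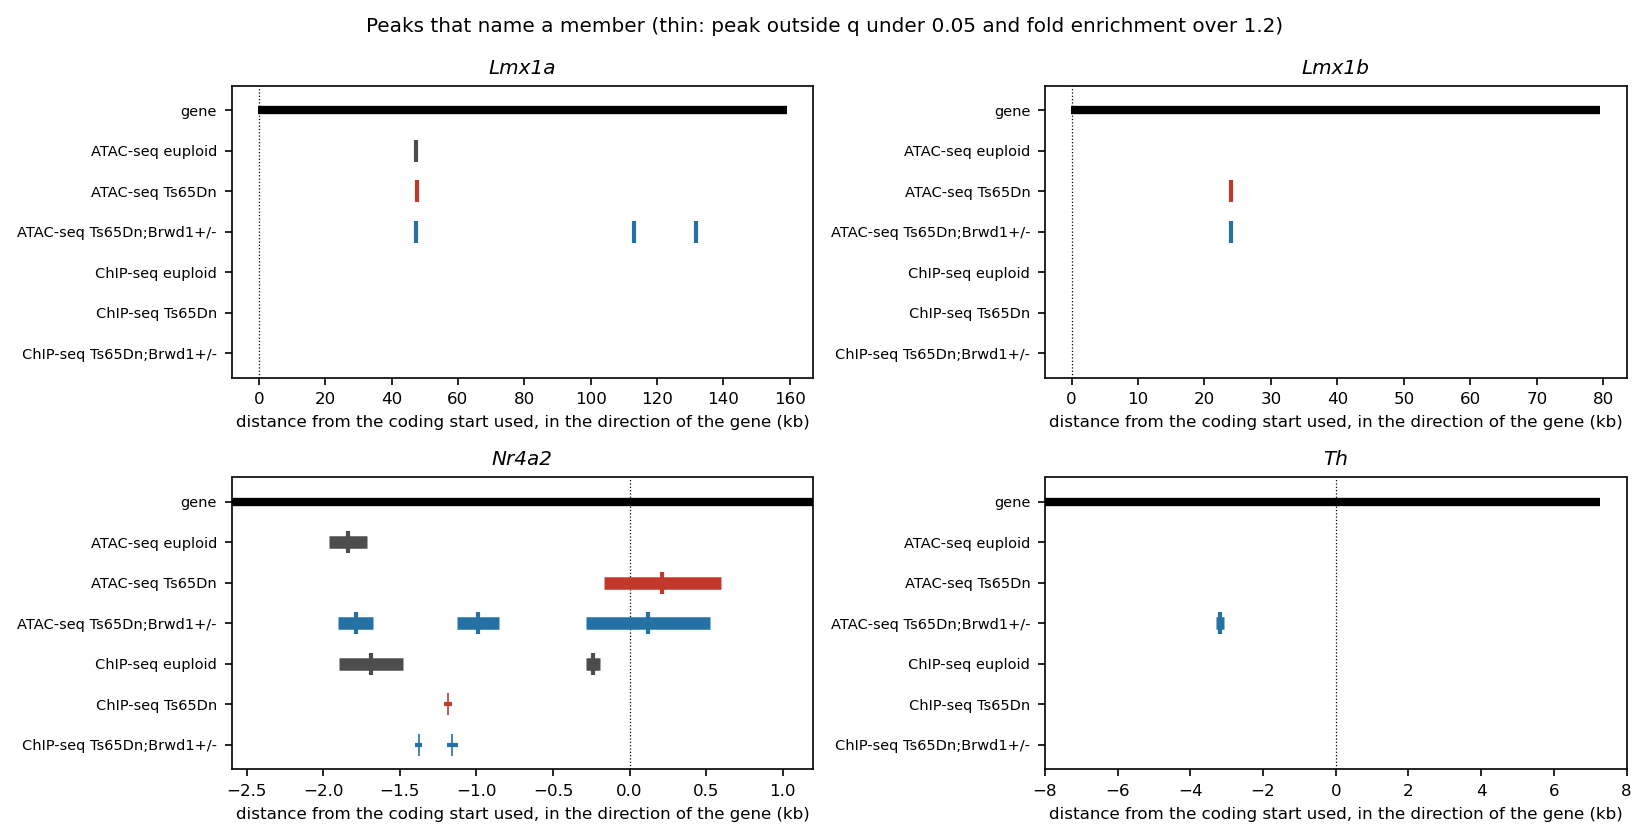
Position of the peaks that name Lmx1a, Lmx1b, Nr4a2 and Th (x axis, kb from the coding start used, positive into the gene) in the 6 peak lists of adult hippocampus (rows), with the gene span in black; thick marks are peaks with q under 0.05 and fold enrichment over 1.2 and thin marks are others. Lmx1a has a peak at the same place in all ATAC-seq lists, and at Nr4a2 the SMARCA2/4 peaks of both trisomic genotypes are thin.

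Of the 6 genes without a named peak, Foxa2 had its nearest ATAC-seq peak 348.8 kb away in euploid and 115 kb away in both trisomic lists, and En2 94.1 kb away in euploid, 85.97 kb in Ts65Dn and 56.64 kb in Ts65Dn;Brwd1+/-. The trisomic lists held more peaks than the euploid one. For En1 the nearest ATAC-seq peak lay 14.3 to 14.4 kb from the gene in every genotype and named no gene, for Ddc 4.69 to 4.72 kb away, naming Fignl1, and for Foxa1 about 310 kb away, naming Mipol1. For Pitx3 a peak lay 3.80 to 3.83 kb before the gene in euploid and Ts65Dn and 0.095 kb from it in Ts65Dn;Brwd1+/-, but it named Gbf1 or Elovl3. As a check of the lists, 7 or 8 of the 8 pan-neuronal genes and 5, 9 and 8 of the 10 telencephalic genes were named in the ATAC-seq lists of euploid, Ts65Dn and Ts65Dn;Brwd1+/-, and 8, 15 and 14 of the 44 pathway genes. The SMARCA2/4 lists, in the same order, named 7, 2 and 2 pan-neuronal, 7, 0 and 2 telencephalic and 9, 1 and 2 pathway genes. The short trisomic SMARCA2/4 lists thus missed most genes of this check.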

How the data were processed

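The authors deposited 9 tables of raw read counts per gene from the cultures and 6 peak lists from hippocampus. Reads were aligned to mm10 with HISAT2; featureCounts is named in the submitters' notes, while the deposited count files end in 5 htseq-style lines naming no gene (37.4 to 40.0% of each file), left out here. Peaks were called with MACS on pooled samples and deposited with fold enrichment, a ratio, and q-values; the ChIP-seq lists hold q-values up to 1 despite the stated filter. Counts were tested with edgeR 4.0.16 (R 4.3.3; filterByExpr, TMM, quasi-likelihood, all 9 libraries, Benjamini-Hochberg threshold 0.05), checked on simulated data. Adjusted p-values cover all 17173 genes tested. CPM are TMM-scaled, and log2 CPM used a prior count of 2. Per the study's methods, cortices were dissociated embryo by embryo and molecular samples were in general not pooled, whereas the labels call the culture samples pooled from males and females, and the ChIP-seq methods describe pooled hippocampi. By Xist and Ddx3y no culture library read as a mix of the sexes, which goes against that label. Whether a culture library held a single embryo or several was not resolved, and p-values measure the spread between libraries. Counting intervals (95%, exact) and the floor of 3 counts cover counting error only. Gene spans and exon lengths come from GENCODE vM21, and promoters from RefSeq on GRCm38. Named pathway genes were those passing 0.05 for Ts65Dn against euploid, at most 8 of the largest changes per list; Slc6a3, Kdr, Gata2, Htr1a, Htr5b, Shh, Dmrta2, Neurog2 and the genes too low to test were named after their values were seen. The values of 2 patterning genes, included in the counts, are not reported here. The members and lists were chosen with earlier results of these data known. Alternatives were another scaling, other filters, a replicate block, 1 factor of unwanted variation, limma-voom 3.58.1, DESeq2 1.42.0, 2 genotypes only and leaving out each library. Columns of peak statistics other than fold enrichment, q-value and annotation were not used.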

Additional observations from a re-analysis of the deposited data

How the results depend on the processing

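Over all alternatives and the 3 comparisons, 430 values of single members kept their direction and their side of the threshold, 2 lost significance, 5 gained it and 2 turned direction. The turned values were not called in either fit: Ddc for Ts65Dn;Brwd1+/- against Ts65Dn ranged from -0.39 to 0.032 on the log2 scale when each library was left out, with 0.032 without Ts65Dn;Brwd1+/- replicate 1. Lmx1b for Ts65Dn;Brwd1+/- against euploid ranged from -0.18 without euploid replicate 3 to 1.32 without euploid replicate 2. The 2 lost calls were those of Th for Ts65Dn;Brwd1+/- against Ts65Dn given in the report. With only euploid and Ts65Dn fitted, 7 members were called, since Th was then not tested. For Ts65Dn;Brwd1+/- against euploid, En2 gained a call in 4 alternatives (adjusted p 0.0194 to 0.0447) and Nr4a2 in 1 (0.0416).

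Requiring 10 counts in every library left 3, 2 and 1 members called in the 3 comparisons, in place of 8, 7 and 2, because the members that were low in any genotype were then not tested. Leaving out each library in turn gave 8 to 8, 6 to 7 and 2 to 3 members called, and 22 to 27, 26 to 29 and 16 to 22 pathway genes. Same-numbered libraries of different genotypes deviated together with correlations of -0.16 to 0.28, and 7 of 9 libraries correlated best with their own number, a hint of pairing from the data. Since only 6 of 9 such pairs exceeded 0.1 and no label ties the numbers to a shared litter or day, the samples were not treated as paired. With the replicate number as a block, 8, 7 and 3 members and 26, 28 and 20 pathway genes were called.

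With q under 0.05 and fold over 1.2, or with q under 0.01, 0 members were named in the ChIP-seq lists of Ts65Dn and of Ts65Dn;Brwd1+/-. With promoter classes only, 1 member was named in each ATAC-seq list. Depth limits Foxa2, Pitx3, En1, Foxa1, Lmx1b and Th outside the genotypes in which they were high, where differences of a few counts were not detectable.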
